A study of Mus musculus with 4 samples.

Results

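The GATA transcription factors Gata1 to Gata6 and their Friend of GATA cofactors Zfpm1 (Fog1) and Zfpm2 (Fog2) were followed in cultured mouse muscle stem cells (MuSCs) given bone morphogenetic protein 6 (BMP6). The 8 genes were chosen by their symbols, with their TPM (an abundance scaled for transcript length and library depth) in the BMP6 and control libraries already in view, so the BMP6 values below are a description and carry no test. They are 8 of 55267 gene entries. MuSCs were sorted by fluorescence from skeletal muscle of 9-week-old female mice carrying a Pax7-driven EGFP transgene (C57BL/6N(Tg(Pax7-EGFP)Tajb)), expanded in 15% serum at 3% oxygen, and kept for 6 h without serum with 200 ng/mL BMPR1A-Fc, a soluble receptor that traps BMP ligands. After this starvation, BMP6 was given at 100 ng/mL for 1 h, and control cells were given the solvent alone (4 mM HCl, 0.1% BSA). Both groups therefore share the transgene, the culture and the starvation with BMPR1A-Fc. Each group had 2 libraries, and the labels give BMP6 and control libraries of the same number the same batch. The values apply to cells in culture, and since RNA was taken in bulk, fewer cells of a type and less RNA per cell cannot be told apart.

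GATA factors bind DNA through a pair of zinc fingers. By long-established use Gata1, Gata2 and Gata3 are grouped as the blood factors: Gata1 drives red cell and platelet lineages, Gata2 maintains blood stem cells and acts in mast cells and endothelium, and Gata3 directs T cell fate. Gata4, Gata5 and Gata6 act in heart, gut and other tissues of mesoderm and endoderm origin. Zfpm1 and Zfpm2 do not act by binding DNA themselves; they bind the amino-terminal GATA finger and bring in corepressors, among them the nucleosome remodelling and deacetylase (NuRD) complex and CtBP proteins. BMP ligands act through SMAD1, SMAD5 and SMAD8, and Gata2 and Gata3 are known BMP-responsive genes of the early ectoderm.

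The libraries were deeply sequenced. Coverage in the deposited transcript files corresponds to between 108138579 and 111966564 reads of 100 bases per library, and between 13002 and 13203 entries per library reached 1 TPM. Of 6 genes listed as a check of the BMP response, 5 rose past an adjusted p of 0.1 (limma, Benjamini-Hochberg). Of all tested entries, 0.213% were past it and higher. The 5 were the inhibitors of differentiation Id1, Id2 and Id3, the inhibitory SMAD Smad7 and the bHLH factor Atoh8. Their log2 differences lay between 1.26 and 2.46. The list was made with earlier results of these data known, so it is no independent check. Smad6 had a log2 difference of 2.23 ± 0.37 (SE) with an adjusted p of 0.270 (limma), and passed with the replicate number as a block, at an adjusted p of 0.00169 (limma), beside 1.07% of all tested entries past it that were higher. The muscle identity of the cultures was plain in the markers, with Pax7 between 8.29 and 11.7 TPM, Myod1 between 536 and 631 TPM and Myog between 4400 and 5472 TPM. Of the 5 muscle markers 0 passed the adjusted p, 0 had an unadjusted p under 0.05 and 0 passed with voom; with the replicate block the filament gene Des did, at a log2 difference of -0.24, beside 0.259% of all tested entries past it that were lower.

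A single exon from each of the 2 members expressed above 1 TPM is shown first, because these genes are relatives and reads could in principle be shared between them. Exon 5 of each main transcript, 126 bases in both genes, is printed from GRCm39 in the gene's own 5′ to 3′ direction. Capitals mark the bases at which they differ.
Gata2 exon 5, chr6:88181565-88181690, plus strand: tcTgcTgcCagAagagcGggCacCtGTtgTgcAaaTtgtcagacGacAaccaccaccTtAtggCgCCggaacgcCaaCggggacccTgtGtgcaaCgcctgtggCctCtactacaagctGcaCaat
Gata3 exon 5, chr2:9867906-9868031, minus strand: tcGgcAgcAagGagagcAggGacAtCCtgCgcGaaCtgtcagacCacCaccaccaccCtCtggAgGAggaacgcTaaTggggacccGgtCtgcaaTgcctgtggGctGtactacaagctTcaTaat
The exons shared 98 of 126 bases, an identity of 77.8%, and their longest run of identical bases was 11. All 6 Gata genes have an exon of this length, and the identity of the 15 pairs ran from 61.1% to 78.6%, with Gata4 and Gata6 at the top and Gata2 and Gata3 next. Over the whole main transcripts, the longest exact stretch in common between Gata2 and Gata3 was 17 bases, and the longest between any 2 members was 26 bases (Gata4 and Gata5). Reads were 100 bases long, so no exact read could be placed in both. The transcripts of other genes that matched a member over at least 100 bases at 95% identity or more were in each case those of an RNA overlapping it on the opposite strand.

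Gata2, the factor of blood stem cells and endothelium (chromosome 6, 88170873 to 88184014, plus strand, GRCm39), had the highest level of the 8 in every library. It was at 11.9 TPM in BMP6 replicate 1 and at 16.0 TPM in BMP6 replicate 2. The controls stood at 5.53 TPM in replicate 1 and at 6.06 TPM in replicate 2. Both BMP6 libraries thus lay above both controls, with means of 14.0 ± 2.88 TPM and 5.80 ± 0.37 TPM (SD, n = 2 each) and a ratio of the means of 2.41. Within same-numbered libraries the ratio was 2.15 in replicate 1 and 2.64 in replicate 2. The values rested on 2669 and 3411 rebuilt reads after BMP6 and on 1261 and 1333 in the controls. The fitted log2(TPM + 1) difference was 1.13 ± 0.17 (SE), the 38th highest of 13128 entries tested.

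Gata3, the T cell factor (chromosome 2, 9861889 to 9883411, minus strand), was the next in level. BMP6 libraries held 6.09 and 5.60 TPM and control libraries 3.33 and 2.60 TPM, in replicate order. The groups did not overlap, the means were 5.85 ± 0.35 and 2.96 ± 0.52 TPM (SD, n = 2 each), and the ratio of the means was 1.97. The ratio was 1.83 in replicate 1 and 2.16 in replicate 2, from 514 to 1227 rebuilt reads per library. The libraries carry no strand, and Gm13256, which overlaps Gata3 on the other strand, was listed at 0 in 3 libraries and at 0.032 TPM in control replicate 2. Its fitted log2(TPM + 1) difference of 0.79 ± 0.16 (SE) was the 68th highest.

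**Figure D1:**
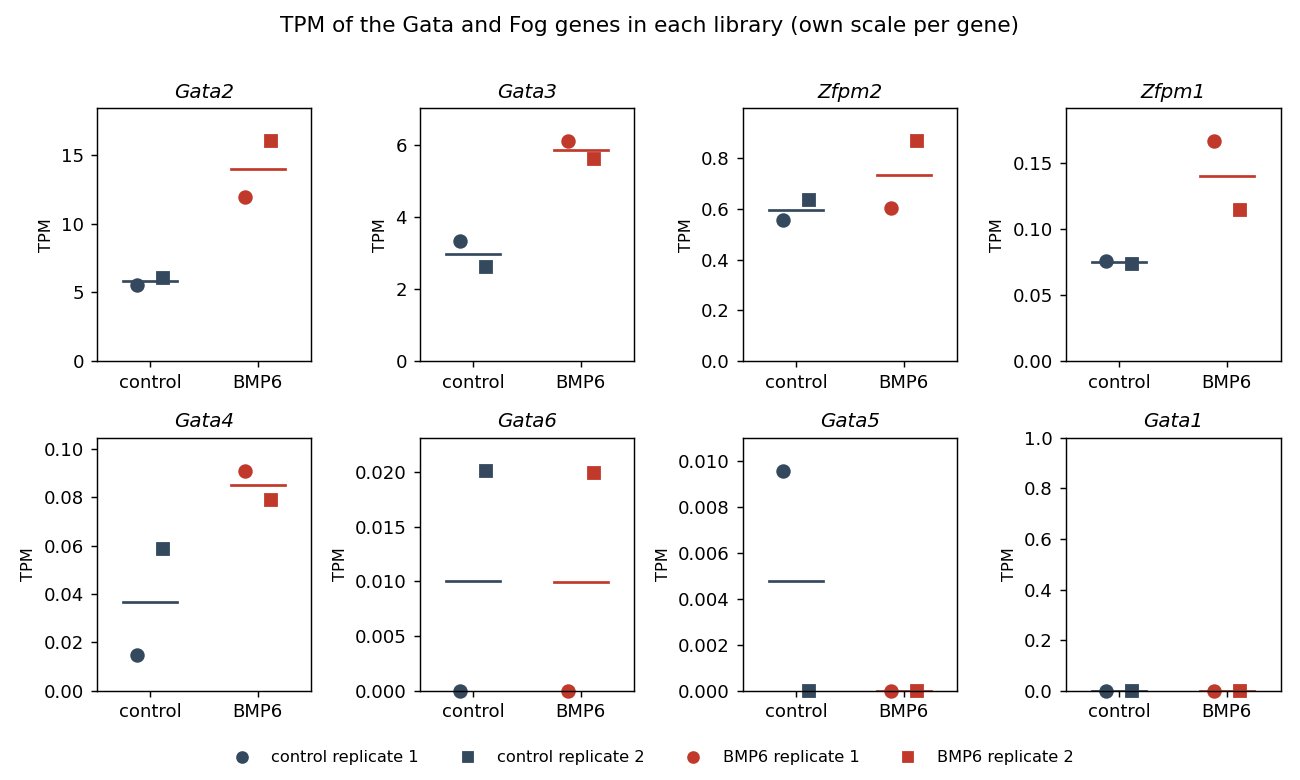
TPM of each Gata and Fog gene in the 2 control and 2 BMP6 libraries, with a linear y axis of its own for every gene; circles are replicate 1, squares replicate 2, and bars the group means (n = 2). Gata2 and Gata3 sit at several TPM with the BMP6 points above the controls, while the other 6 genes stay under 1 TPM.

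Only these 2 members passed the filter of a mean of 1 TPM; the other 6 did not, and no count over the members that passed is offered as support. The thresholds of the study were used with the limma fit: a fold change of at least 2, here taken on TPM + 1, and an adjusted p under 0.1. By these 0 of the 2 were called, beside 0.183% of entries called higher and 0% called lower (24 and 0 of 13128). At an unadjusted p under 0.05, 1 entry was lower by that fold. Voom on rebuilt reads called 0 lower, or 6 with the block described next. With the replicate number as a block, which the shared batch labels provide, Gata2 was called and Gata3 was not, beside 0.274% called higher. Both members had non-overlapping groups, as did 16.6% of the entries tested with BMP6 above control. Because the contrast itself entered the choice of genes, nothing is read from these counts.

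The replicates of one treatment also differed. For Gata2, replicate 2 minus replicate 1 on the log2(TPM + 1) scale was 0.40 in the BMP6 libraries and 0.11 in the controls; BMP6 minus control was 0.98 in replicate 1 and 1.27 in replicate 2. For Gata3 the replicate differences were -0.10 and -0.27, and BMP6 minus control was 0.71 and 0.88. No test was made between these, since the treatment difference was in view when the genes were chosen. The genes thus leaned opposite ways between replicates: Gata2 was higher in replicate 2 of both groups and Gata3 in replicate 1 of both. Gata2 TPM was 1.96 and 2.86 times Gata3 TPM after BMP6 and 1.66 and 2.33 times in the controls, in replicate order, so it was higher after BMP6 within each replicate number, while the ranges of the groups overlapped. Together they made up between 99.1% and 99.7% of the TPM of the 6 Gata genes in each library.

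**Figure D2:**
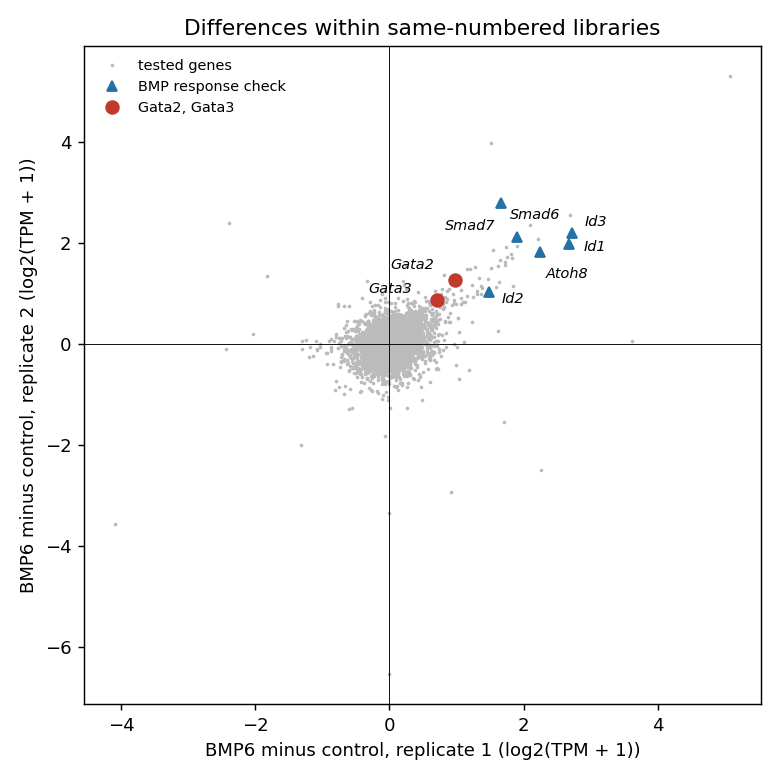
BMP6 minus control on the log2(TPM + 1) scale in replicate 1 (x axis) against replicate 2 (y axis), for 13128 tested entries (grey), the 6 BMP response genes (blue triangles) and Gata2 and Gata3 (red circles). Gata2 lies at 0.98 and 1.27 and Gata3 at 0.71 and 0.88, at the upper right edge of the grey cloud around 0 and nearer to it than most of the BMP response genes.

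Both genes carried the difference along their length. All 6 exons of the main Gata2 transcript had more coverage per 1000000 rebuilt reads after BMP6 in both replicates, with log2 ratios between 0.88 and 1.51. Exon 3 of Gata2, for example, went from 0.321 and 0.366 in the controls to 0.686 and 0.877 after BMP6. In GENCODE M39 an RNA on the other strand, Spehd, overlaps exon 1 of Gata2 over 204 bases. Since the libraries carry no strand, its part in the coverage of that exon cannot be told apart. In Gata3, exons 2 to 6 had log2 ratios between 0.70 and 1.49 in both replicates. Exon 1 of Gata3 gave -0.18 and 0.58, at a coverage on that scale of 0.025 to 0.043, far under that of its other exons. These are the same reads as the gene values and are no second measurement.

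Gata2 has 2 annotated first exons. The distal one, used mainly in blood cells, begins a transcript at position 88170873 of chromosome 6, and the proximal one begins at 88175316. The proximal transcript held 11.9 and 15.2 TPM after BMP6 and 5.50 and 6.06 TPM in the controls. The distal transcript was assigned 0.81 TPM in BMP6 replicate 2 and 0.029 TPM in control replicate 1 and was listed at 0 in the other two libraries. Its own first exon was covered in BMP6 replicate 2 alone, at a mean depth of 1.00, while its shared exons were covered at 4.55 to 5.47 there. The BMP6 difference of Gata2 was thus in the transcript with the proximal start. The first exon of that transcript spans 548 bases and had a coverage on the same scale of 0.051 to 0.147, the lowest of its exons in each library. RefSeq places the proximal start 330 bases inside it, so most of the exon lies before the RefSeq start.

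**Figure D3:**
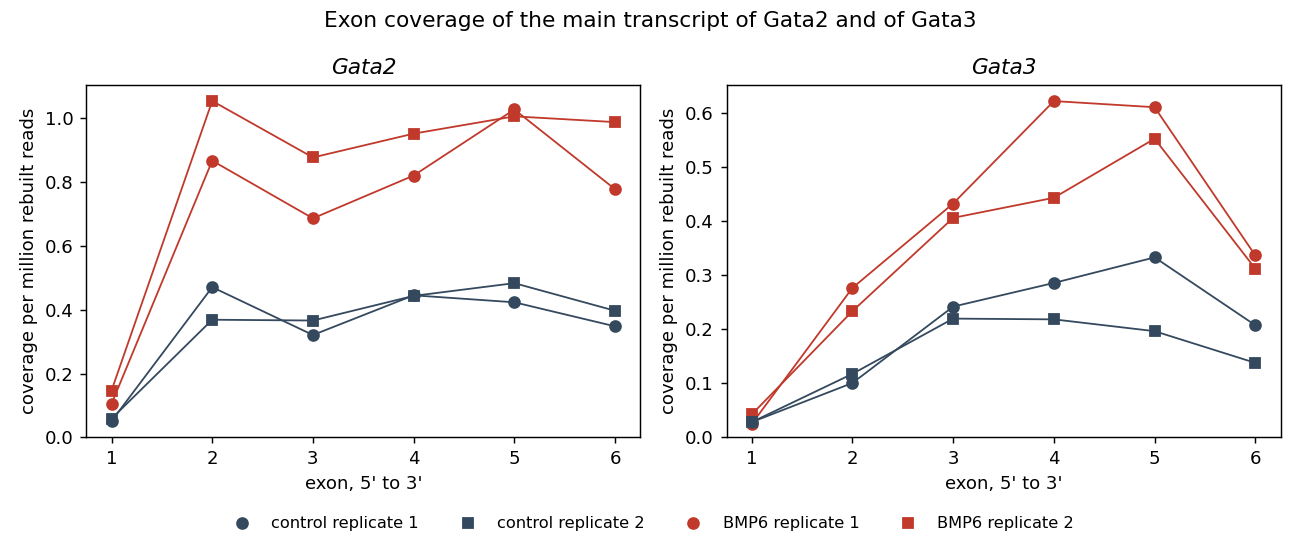
Mean coverage per 1000000 rebuilt reads (y axis) over the 6 exons, 5′ to 3′ (x axis), of the main Gata2 and Gata3 transcripts; red lines are BMP6 and dark lines control libraries. In Gata2 both BMP6 lines run above both control lines at every exon, and in Gata3 from exon 2 on.

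The start regions of the genes were read for short sequence elements. The RefSeq promoter table covered 5 of the 8 members, and the 250 bases before each start matched GRCm39 exactly once. The GC-rich SMAD1/5 element GGCGCC, a palindrome, was found once before the proximal start of Gata2 and once before that of Gata3; it was in 9.59% of the 32851 promoters of this length. The stretches of 30 bases around these matches are shown because they are the only matches of that element before a start of Gata2 or Gata3. They are in the direction of the gene, with the element in capitals.
Gata2, chr6:88175596-88175625, plus strand: cgctgattggctGGCGCCggcttcataggc
Gata3, chr2:9883606-9883635, minus strand: gcggcccttggcGGCGCCcctttccggtca
The element began 38 bases before the start of Gata2 and 212 bases before that of Gata3; the Gata2 stretch lies inside the proximal first exon as GENCODE M32 draws it. The distal Gata2 window and those of Gata1, Gata5 and Zfpm1 did not hold these letters. The other SMAD element, CAGAC, searched on both strands, was present 2 times before the proximal Gata2 start and in no other of these windows. Of all promoters, 42.2% held it at least once and 11.7% held it 2 or more times. The GATA elements AGATAA and TGATAA, searched on both strands, and the E-box CAGCTG, a palindrome, were in none of the 6 windows (9.99%, 7.94% and 13.0% of all promoters). The windows of Gata2 and Gata3 were rich in G and C, at 67.2% for the distal and 74.0% for the proximal Gata2 window and 70.0% for Gata3, above 87.1%, 95.4% and 91.2% of promoters or level with them. These matches are descriptions of the letters and say nothing of binding.

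Zfpm2, the Fog cofactor of heart and gonad (chromosome 15, 40518431 to 40967988, plus strand), was the more abundant of the 2 cofactors. It was at 0.605 and 0.867 TPM after BMP6 and at 0.558 and 0.636 TPM in the controls, from 177 to 259 rebuilt reads. The groups overlapped, with BMP6 replicate 1 below control replicate 2; within same-numbered libraries the ratio was 1.08 in replicate 1 and 1.36 in replicate 2. Only BMP6 replicate 2 stood apart, and in it the last exon was covered at 6.34 against 3.92 to 4.51 in the other libraries. A short RNA of uncertain coding status inside an intron of Zfpm2, Gm49525, was at 0.464 and 0.301 TPM after BMP6 and at 0.038 and 0.150 TPM in the controls. Both BMP6 libraries of Gm49525 thus lay above both controls, as in 11.8% of entries with a mean above 0 and under 1 TPM. Other RNAs of this kind inside an intron of Zfpm2 did not show that order. Gm49526 was listed at 0 in both BMP6 libraries and at 0.009 and 0.036 TPM in the controls. Gm49524 was at 0.016 and 0.235 TPM after BMP6 and 0.037 and 0.178 TPM in the controls. The part of these RNAs in the Zfpm2 value was not tested.

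Zfpm1, the cofactor of Gata1 in red cells and platelets (chromosome 8, 123008880 to 123063990, plus strand), was at 0.167 and 0.115 TPM after BMP6 and at 0.076 and 0.074 TPM in the controls. The groups did not overlap, but the values came from 35.4 and 23.3 rebuilt reads after BMP6 and 16.4 and 15.4 in the controls, spread thinly over 10 exons. Gata4, the heart and endoderm factor (chromosome 14, 63436371 to 63482720, minus strand), was at 0.091 and 0.079 TPM after BMP6 and at 0.015 and 0.059 TPM in the controls. Its groups did not overlap either, and its reads were fewer still, 19.4 and 16.1 after BMP6 against 3.19 and 12.3. No read fell on its first exon in any library, and in control replicate 2 only the last exon was covered. Of the 15728 entries with a mean above 0 and under 1 TPM, 11.8% had both BMP6 libraries above both controls, and 2 of the 5 members in that range did.

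The other 3 members were at or near 0. Gata1 was listed at 0 in all 4 libraries, where 3 reads would amount to 0.025 to 0.026 TPM. Gata5 was at 0.0096 TPM in control replicate 1, from 2 reads in the last exon, and at 0 elsewhere. Gata6 was at 0.020 TPM in replicate 2 of each group, from about 4 reads, and at 0 in both replicates 1. In the libraries where these 2 genes were at 0, 3 reads would amount to 0.015 TPM, and no fold is given for them. A count of 0 allows up to 3 independent fragments, and each fragment gives up to 2 reads, so the limit can lie above these values. Such limits cover counting error only, since the libraries carry no molecular identifiers.

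In TPM, which is per length, the order of the means over the 4 libraries was Gata2 (9.88), Gata3 (4.40), Zfpm2 (0.667), Zfpm1 (0.108), Gata4 (0.061), Gata6 (0.010), Gata5 (0.0024) and Gata1 (0). Gata2 exceeded Gata3 and Gata3 exceeded Zfpm2 in every library, as did Zfpm2 over Zfpm1. Zfpm1 lay above Gata4 in each library, but the ranges of these neighbours over the libraries overlapped, as did those of Gata6 and Gata5. Among tested entries, 44.3% had a lower mean TPM than Gata2 and 27.8% a lower one than Gata3, so both were in the lower part of the range.

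Genes that work with GATA and FOG proteins were listed in 6 groups. The lists held 48 genes, of which 11 were listed at 0 in all libraries and 28 were tested, and 0 passed an adjusted p of 0.1 (limma) beside 0.213% of entries past it that were higher and 0.00762% that were lower. At an unadjusted p under 0.05 there were 3 (Lmo2, Nr2f2 and Isl1, named after their values were seen), beside 3.2% of all entries tested. Of the 28, 19 lay above 0 and 9 below, beside 55.3% of all entries above 0. The 28 include the entry named Zglp1, at a log2 difference of -0.03, which spans other genes and is no measure of Zglp1. Their median log2 difference was 0.08, beside 0.02 over all entries tested. With voom on rebuilt reads 0 passed, beside 0.16% of entries, and with voom and the replicate block 2 did, both higher, beside 1.41% of entries higher: the NuRD subunit Gatad2b and the mesoderm nuclear receptor Nr2f2, named here after their values were seen.

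Among the corepressors, all 13 NuRD subunits were tested and the median log2 difference was 0.04. The histone-binding subunit Rbbp7 averaged 613 ± 3.13 TPM with BMP6 against 587 ± 23.4 TPM without (SD, n = 2 each), the deacetylase Hdac2 at 212 ± 3.77 and 207 ± 1.98 TPM, and the deacetylase Hdac1 at 197 ± 1.28 and 193 ± 0.13 TPM. The 95% intervals of the log2 difference were -0.12 to 0.24 for Rbbp7, -0.15 to 0.22 for Hdac2 and -0.15 to 0.22 for Hdac1. The corepressor Ctbp1 was at 274 ± 0.10 and 279 ± 17.2 TPM, with an interval of -0.22 to 0.18. Ctbp2 has no entry under its own name because its locus was joined with Fgfr2; its own transcripts summed to 16.97 and 16.59 TPM after BMP6 and 12.66 and 14.41 TPM in the controls. The groups did not overlap, as in 16.6% of the entries tested with BMP6 above control, and no test was run on transcripts.

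Of the other proteins with GATA-type zinc fingers, all 4 entries were tested and 0 passed, 0 also at an unadjusted p under 0.05, and 0 with voom. Gatad1 averaged 29.9 ± 0.04 TPM with BMP6 against 26.7 ± 1.96 TPM without, and the repressor Trps1 at 1.91 ± 0.30 and 1.73 ± 0.49 TPM. The entry named Zglp1, at 59.3 to 67.3 TPM, spans 6 gene names including Raver1 and Fdx2, and the transcripts of Zglp1 itself held no more than 0.0002 TPM. That entry is therefore no measure of Zglp1.

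The partners known from blood, heart and T cells were present in part. Of the 11 blood partners 4 were tested, with Runx1 at 43.1 ± 7.21 and 37.6 ± 4.98 TPM, Tcf3 at 39.1 ± 2.85 and 41.4 ± 1.58 TPM and the adaptor Ldb1 at 5.08 ± 1.73 and 6.64 ± 2.51 TPM in BMP6 and control libraries. Tal1, Lyl1 and Gfi1b, the blood factors that form complexes with Gata1 and Gata2, were listed at 0 in all libraries. Their shared LIM partner Lmo2, singled out after its values were seen, was at 2.60 and 2.08 TPM after BMP6 and 1.41 and 1.33 TPM in the controls, and its adjusted p was 1 (limma). Of the 11 heart and mesoderm partners 5 were tested, led by Mef2c at 70.1 ± 4.42 and 72.9 ± 4.13 TPM and Nfatc1 at 5.52 ± 0.59 and 4.49 ± 0.75 TPM. Nr2f2, the COUP-TFII receptor that binds Fog2, was at 2.62 ± 0.20 and 1.53 ± 0.20 TPM. Tbx5, Tbx20, Hand1 and Hand2 were listed at 0. Of the 7 T cell genes Tcf7 alone was tested, at 9.03 ± 1.43 and 7.45 ± 0.37 TPM; Bcl11b was under 0.1 TPM, and Tbx21, Il4, Il5 and Il13 were listed at 0.

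**Figure D4:**
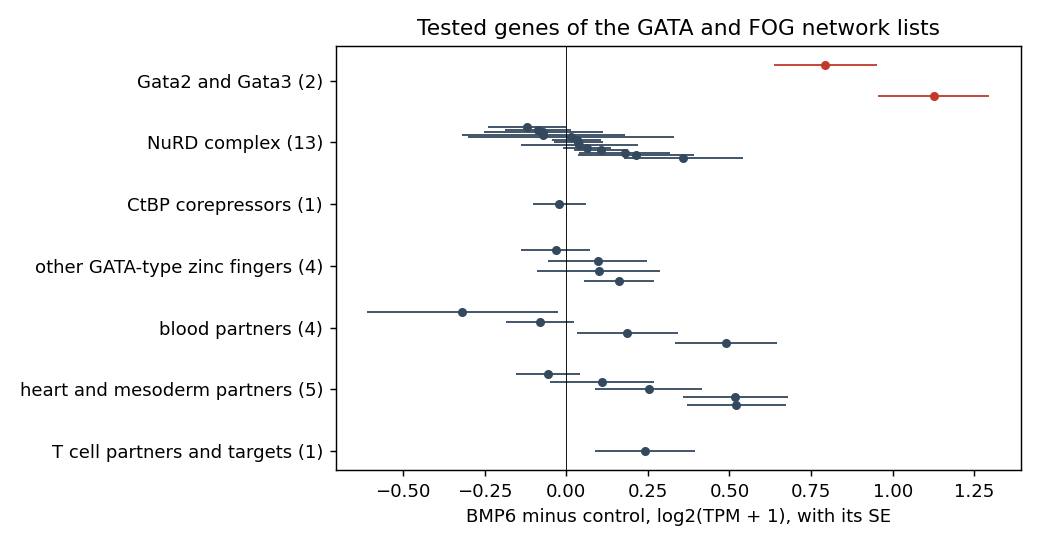
Fitted BMP6 minus control differences on the log2(TPM + 1) scale (x axis) with their standard errors for Gata2 and Gata3 (red) and for the tested genes of each network list (dark; numbers tested in brackets). The network genes lie between -0.32 and 0.52, and Gata3 and Gata2 at 0.79 and 1.13. The dark points include the entry named Zglp1, which spans other genes.

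Other cell types that the cultures could hold were looked for by their markers, 33 genes in 7 lists. Mast cell markers (Kit, Cpa3, Mcpt4, Tpsb2 and Fcer1a) were listed at 0 in all libraries. Lymphocyte markers summed to 0.187 and 0.740 TPM after BMP6 and 0.413 and 0.193 TPM in the controls, with Cd3d and Il7r at 0. Endothelial markers summed to 1.72 and 2.02 TPM after BMP6 and 2.16 and 1.25 TPM in the controls; Tek made up most of this, Kdr was listed at 0 and Pecam1 reached 0.111 TPM. Red cell and platelet markers summed to 9.12 and 8.23 TPM and to 9.39 and 7.54 TPM, most of it Epor, with Hbb-bt at 0. Macrophage markers summed to 1.19 and 1.89 TPM and to 2.204 and 1.348 TPM, led by Cd68. Fibroblast markers summed to 82.0 and 54.0 TPM and to 88.7 and 67.9 TPM, led by Col1a1. Smooth muscle and pericyte markers summed to 2952 and 2912 TPM and to 3105 and 3256 TPM, nearly all Acta2, with Myh11 at 0.024 TPM or less. Pdgfrb was at 4.41 and 4.93 TPM after BMP6 and 4.48 and 4.77 TPM in the controls. Rgs5 was at 0.879 and 0.554 TPM after BMP6 and 0.493 and 0.231 TPM in the controls. Of the 9 markers tested 0 passed an adjusted p of 0.1 (limma), 0 had an unadjusted p under 0.05, and 0 passed with voom or with the replicate block. The part of such cells in the Gata2 and Gata3 values was not tested.

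The genes nearest in pattern were sought over the 4 libraries, by the distance between log2(TPM + 1) profiles centred on their own means. Among the 3 nearest to Gata2 was the zinc finger gene Zbtb2, at a distance of 0.22. Zbtb2 held 12.9 and 16.4 TPM with BMP6 against 5.27 and 5.18 TPM without. As with Gata2, the higher of its BMP6 values was in replicate 2. Nearest to Gata3 were the receptor adaptor Traf5 at 0.098, Fam78a at 0.11 and the signalling antagonist Spry2 at 0.11. Traf5 was at 4.50 and 4.23 TPM after BMP6 and 2.32 and 2.02 TPM in the controls, Fam78a at 5.63 and 5.67 against 3.05 and 2.62 TPM, and Spry2 at 53.1 and 52.6 against 30.7 and 25.8 TPM. The distance between Gata2 and Gata3 was 0.55, which placed Gata3 as the 51st nearest entry to Gata2 and Gata2 as the 241st nearest to Gata3. With 4 libraries such nearness describes these samples only.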

How the data were processed

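RNA from 2 BMP6 and 2 control libraries of MuSCs was sequenced in pairs of reads, without strand information or molecular identifiers (Smart-seq2, Nextera XT). The authors aligned the reads with STAR 2.7.11a to GRCm39 (GENCODE M32), handled alignments with SAMtools 1.17 and quantified merged loci with StringTie 2.2.1, run without its correction for multi-mapped reads. Deposited were TPM and FPKM per gene entry and, in the authors' per-library files, mean coverage (a signal) per transcript and exon. A second per-library transcript list was not used. TPM values in the joined and per-library tables were the same for all 55267 entries. Reads were rebuilt as coverage times length over 100 bases, so the 2 mates of a pair count as 2 reads.

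The study's comparison used counts; since TPM are not counts, limma 3.58.1 (R 4.3.3; lmFit, eBayes with trend, two-sided) was run on log2(TPM + 1) over 13128 entries with a mean of at least 1 TPM, with Benjamini-Hochberg adjustment. To be called, an entry had to change at least 2 times in TPM + 1 (ratio 2 or more, or 0.5 or less) at an adjusted p below 0.1. At low levels this asks for more than the same ratio of TPM. The 2483 entries left out by the study's naming rule stayed in the fit. An exact permutation test of 2 against 2 libraries cannot give a p under 0.333. The fit was tested on simulated data for this comparison, with noise drawn independently for each library. Of 200 genes among 13128 given a log2 change of 2, 174 passed an adjusted p below 0.1 (limma). So did 18 unchanged genes. The planted change was larger than the 1.13 fitted for Gata2, and smaller changes were not simulated. The simulation also left out the correlation between same-numbered libraries given next. Same-numbered libraries share a batch label, and their deviations from the group means correlated at 0.56 across genes; the block is an alternative.

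Members and lists were chosen with earlier results of these data known. Named were all 8 members; of each list, genes past the adjusted p, otherwise the 3 highest in mean TPM; and for members differing by at least 0.5 in both pairs, the 3 nearest genes. Some genes that this rule or a list names are not reported here. Promoters came from RefSeq (GRCm38.p6), placed in GRCm39 by exact match; transcripts were compared with blastn 2.17.0+ against GENCODE M39.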

Additional observations from a re-analysis of the deposited data

How the results depend on the processing

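With 2 libraries a group, the call of a single gene depends on the fit. The log2 difference stayed above 0 under every alternative, between 0.80 and 1.32 for Gata2 and between 0.45 and 0.97 for Gata3, and Gata3 was called under none; at a mean TPM of at least 5 it is not tested. Gata2 was called with the replicate block (1.13), with the replicate block in a voom fit of rebuilt reads (1.24) and without BMP6 replicate 1 (1.32), and not under the others; the block changed no other call of a member; leaving out a library gave 0.93 to 1.32 for Gata2 and 0.66 to 0.93 for Gata3. The number of entries called higher was 24; it was 36 with the replicate block, 15 with a pseudocount of 5, 1 without a filter, 15 at a mean TPM of at least 5, 12 without the trend and 56 with voom and the replicate block, and 17 to 30 with a library left out. The number called lower was 0; it was 1 with the replicate block, 6 with voom and the replicate block, and 1 to 7 with a library left out. Of the network genes 0 passed the adjusted p, save 2 with voom and the replicate block. The cause was not tested, except that the settings with a filter of 5 TPM or none test fewer or more entries.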
